A study of Homo sapiens with 6 samples.

Results

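The guanylate-binding proteins (GBPs) are large GTPases that cells make in response to interferons, above all IFN-γ. IFN-γ binds its receptor, the kinases JAK1 and JAK2 pass the signal on, and transcription factors such as IRF1 switch on the GBP genes through short elements near their start sites. The proteins assemble on the surface of intracellular microbes and damaged vacuoles, recruit inflammatory caspases and, for some members, interfere with the maturation of viral envelope proteins. Natural killer (NK) cells are a main source of IFN-γ, and they also carry its receptor.

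GBP1, GBP2, GBP3, GBP4 and GBP5 were taken by their gene symbols from a count table of 36601 genes, and all 5 were among the 12263 genes with enough reads to be tested. They were followed in NK92, a line grown from a human NK cell lymphoma. One stable derivative expressed a non-targeting control hairpin (shCtrl) and the other a hairpin that knocks down miR155HG (shmiR155HG), with 3 libraries in each group. MiR155HG, which the paper treats as a long noncoding RNA, is the host transcript of miR-155. The paper adds that it has been reported to encode a micropeptide. Both groups received 1000 U/mL of IL-2 together with 10 ng/mL of IL-12 for 12 h before poly(A) RNA was sequenced, so neither group shows the unstimulated level of the GBPs. The comparison asks how the GBP transcripts of cytokine-treated NK92 cells differed between these derivatives. The series has no other hairpin against miR155HG and no rescue. Loss of miR155HG, other effects of the hairpin and differences between the derivatives therefore cannot be told apart. The sources used here do not say whether the libraries of a group came from separate transductions or cultures, so the p-values measure only the spread between these libraries, which may be technical.

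The libraries held between 33454786 and 39157264 counts. The targeted transcript MIR155HG had 73, 67 and 62 counts in shCtrl and 28, 19 and 10 counts in shmiR155HG, which gave −1.78 as log2 fold change (SE 0.43, adjusted p = 0.00450, edgeR's quasi-likelihood test). Of 15 NK cell markers 14 were detected well enough to be tested, while of 7 T cell markers only CD3E was. CD3E stood high, at 331 counts per 1000000 (CPM) in shCtrl and 335 CPM in shmiR155HG. CD3D, CD3G, CD4, CD8A, CD8B and CD5 reached at most 35 counts in a library. None of 3 B cell markers passed the filter, nor did any of 3 fibroblast or epithelial markers. Of 4 myeloid markers 1 did, CSF1R at 4.82 CPM in shCtrl and 3.47 CPM in shmiR155HG. The NK cell markers summed to 4001 to 4132 CPM in shCtrl and to 3294 to 3439 CPM in shmiR155HG. Most of this gap was carried by GZMB (1195 against 543 CPM). At an adjusted p under 0.05, GZMA (558 against 462 CPM), PRF1 (328 against 286 CPM) and NCR3 (160 against 135 CPM) were also lower. EOMES (177 against 221 CPM), TBX21 (252 against 304 CPM) and KLRC1 (102 against 115 CPM) were higher at this threshold. NKG7 stood at 678 and 689 CPM and NCAM1 at 278 and 294 CPM, and neither passed it. In such bulk RNA, fewer cells that transcribe a gene and less RNA of that gene per cell cannot be told apart.

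The 5 genes lie in a cluster on the minus strand of chromosome 1 (hg38). Their order is GBP3, GBP1, GBP2, GBP4 and GBP5, with GBP7 placed between GBP2 and GBP4. GBP3 spans chr1:89006679-89022894, GBP1 chr1:89051882-89065360 and GBP2 chr1:89106132-89150456. GBP4 spans chr1:89181144-89198942 and GBP5 chr1:89256189-89272860. All are protein-coding, with 11 exons in the reference transcript of GBP1 to GBP4 and 12 in that of GBP5. Together with GBP7 and GBP6 of the same family they occupy 381482 bases.

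The start sites of 3 members could be examined in RefSeq promoters of GRCh38.p14, which run from 250 bases before to 50 bases after the gene's start. They are shown because an interferon-stimulated response element (ISRE) and a gamma-activated site (GAS) are the elements through which interferons act on this family. The search used GAAANNGAAA as an ISRE-like motif and TTCNNNGAA as a GAS-like motif, on both strands, and the capitals mark the match.
GBP1, ISRE-like, chr1:89065306-89065355, minus strand: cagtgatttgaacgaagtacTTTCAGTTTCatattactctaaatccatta
GBP3, ISRE-like, chr1:89022835-89022884, minus strand: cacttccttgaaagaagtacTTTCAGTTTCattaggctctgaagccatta
GBP4, ISRE-like, chr1:89198917-89198966, minus strand: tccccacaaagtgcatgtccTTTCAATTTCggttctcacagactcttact
GBP3, GAS-like, chr1:89022853-89022901, minus strand: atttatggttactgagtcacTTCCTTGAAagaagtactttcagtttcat
All 3 promoters held the ISRE-like motif, against 1255 of 35116 promoters (3.57%), and each match lay on the strand opposite to the gene. GBP3 also held the GAS-like motif, which was present in 2689 of the 35116 promoters (7.66%), and its GAS-like and ISRE-like letters lie within the same short stretch. The match began 127 bases before the start in GBP1, 4 bases before it in GBP4 and 2 bases after it in GBP3, counted from the RefSeq start, which for GBP1 and GBP3 lies inside the gene spans given above. GBP1 and GBP3 share an identical run of 19 bases, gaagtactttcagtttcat, across the ISRE-like motif. A match of letters is a description and does not show that a factor binds there.

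Since miR155HG carries miR-155, the 3′ untranslated regions (3′UTRs) of the 5 reference transcripts were searched for the site AGCATTA, the complement of positions 2 to 8 of miR-155-5p. The mature sequence from RefSeq is shown with its seed in capitals, followed by the sites with the match in capitals.
miR-155-5p, chr21:25573983-25574006, plus strand: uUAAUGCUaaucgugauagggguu
GBP4, site at base 2009 of the 3′UTR: tgtaggtgtacAGCATTAtttctggactc
GBP5, first site at base 445 of the 3′UTR: gcaggtaagtgAGCATTAcagcctgagct
GBP5, second site at base 4283 of the 3′UTR: tacatacattcAGCATTActaaaattcta
GBP4 held 1 site in a 3′UTR of 4110 bases and GBP5 held 2 in 4515 bases, while GBP1, GBP2 and GBP3, with 3′UTRs of 1036, 2043 and 1044 bases, held none. The site occurred in 1278 of 10762 3′UTRs (11.9%).

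GBP2 was the member that was lower in shmiR155HG, at 70.1% of its shCtrl level. The other 4 members stood between 93.1% and 99.3% of shCtrl and did not pass the test. No member rose. All 5 fitted changes were negative, with a median log2 fold change of −0.075 against 0.00097 over the 12263 genes tested. Genes as poor in GC as the members also had negative medians, −0.054 and −0.035 in the 2 lowest of 5 groups by GC content. With a correction for GC content GBP3 and GBP4 turned positive, to 0.058 and 0.024. At an adjusted p under 0.05, 1 of 5 members was called lower, where 8.02% of all genes were, and 0 of 5 were called higher, where 7.26% of all genes were. In 2 of 5 members, GBP1 and GBP2, every shmiR155HG library lay below every shCtrl library, a pattern seen in 15.6% of all genes. The study's methods used edgeR's exact test with P below 0.01 before adjustment and more than a 1.2-fold change. By this rule GBP2 was the only member called lower, beside 3.80% of all genes. The paper reports more genes called in each direction than this run of its rule gave.

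GBP2, a prenylated member that joins GBP1 on bacteria and restricts the protease furin, was measured at 64.2, 64.0 and 71.9 CPM in shCtrl replicates 1, 2 and 3. In shmiR155HG replicates 1, 2 and 3 it was measured at 46.9, 46.9 and 46.5 CPM. The groups did not overlap, the shmiR155HG libraries lay at almost the same level, and shCtrl replicate 3 stood above the other shCtrl libraries. The means were 66.7 ± 4.50 CPM in shCtrl and 46.7 ± 0.220 CPM in shmiR155HG (SD, n = 3 each). The log2 fold change was −0.51 (SE 0.066, 95% interval −0.65 to −0.38, adjusted p = 2.14e-06 in edgeR's quasi-likelihood test), and 284 of the 12263 genes (2.32%) fell by more. Without shCtrl replicate 3 the log2 fold change was −0.45. The counts behind these levels were 2333 to 2800 in shCtrl and 1555 to 1799 in shmiR155HG.

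GBP1, the farnesylated member that coats cytosolic bacteria and starts the assembly of the other GBPs, was measured at 202, 204 and 209.7 CPM in shCtrl. In shmiR155HG it was measured at 194, 188 and 191 CPM. The groups did not overlap, but the gap between the nearest libraries was small beside the level. The log2 fold change was −0.10 (SE 0.038, 95% interval −0.18 to −0.025), with an unadjusted p of 0.0120 in edgeR's quasi-likelihood test and an adjusted p of 0.0690, which missed the threshold. Correcting for the GC content of the genes brought it to −0.051 (adjusted p = 0.419).

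GBP5, which restricts furin as GBP2 does and lowers the infectivity of enveloped viruses, was the member with the most counts, at 341, 349 and 333 CPM in shCtrl. In shmiR155HG it was measured at 338, 328 and 306 CPM. The groups overlapped, since shmiR155HG replicate 1 lay above shCtrl replicate 3. The log2 fold change was −0.075 (SE 0.038, 95% interval −0.15 to 0.0028, adjusted p = 0.204), −0.034 without shmiR155HG replicate 3 and −0.0018 with the GC correction.

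GBP4, a member without a prenylation motif that is drawn to bacteria through GBP1, was measured at 233, 223 and 232 CPM in shCtrl and at 225, 216 and 226 CPM in shmiR155HG. Its groups overlapped. The log2 fold change was −0.044 (SE 0.038, 95% interval −0.12 to 0.034, adjusted p = 0.508), and 0.024 with the GC correction. The interval reached from 91.9% to 102% of the shCtrl level.

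GBP3, the close relative of GBP1, was measured at 30.1, 30.9 and 32.3 CPM in shCtrl and at 32.4, 30.3 and 29.8 CPM in shmiR155HG. The groups lay on top of each other, with the highest library of all in shmiR155HG. The log2 fold change was −0.0097 (SE 0.082, 95% interval −0.18 to 0.16, adjusted p = 0.962) and its sign changed with the GC correction, to 0.058. Because GBP3 had the lowest counts of the 5, from 998 to 1257 in a library, its interval of 88.4% to 112% of shCtrl was also the widest of the members that were not called.

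**Figure D1:**
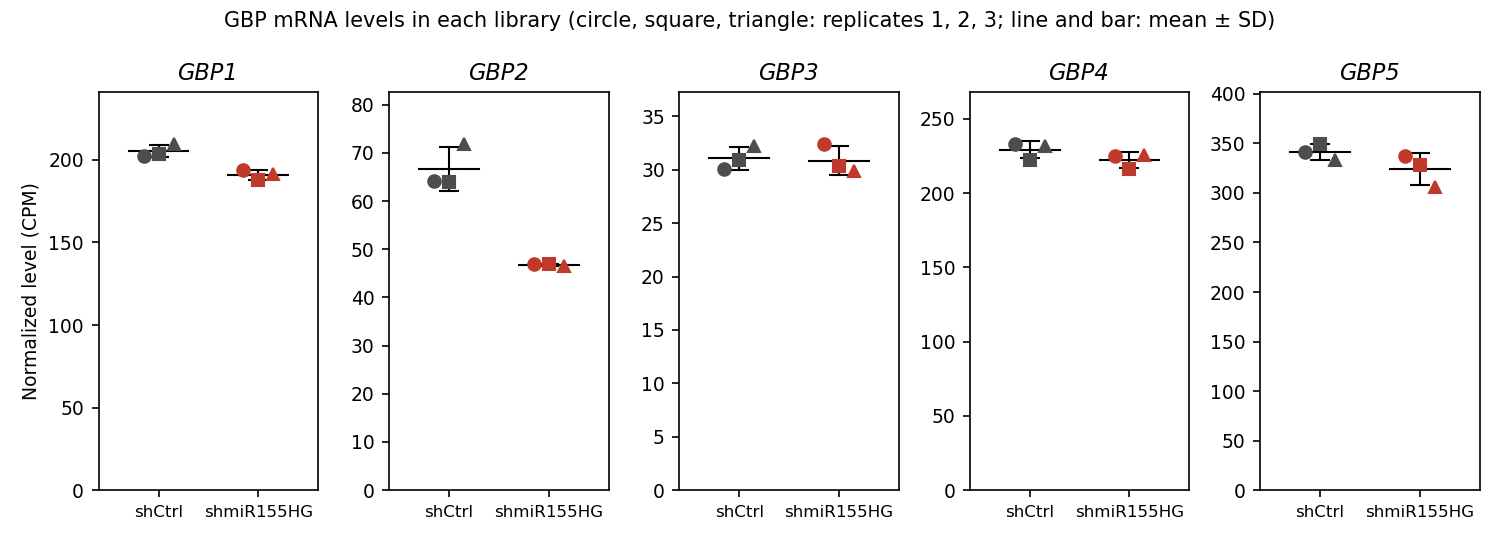
Normalized level in CPM (vertical axes, each starting at 0) of the 5 GBP genes in every library, with circles, squares and triangles for replicates 1, 2 and 3 and a line and bar for the mean ± SD of each group. GBP2 is clearly separated, with shCtrl between 64.0 and 71.9 CPM and shmiR155HG between 46.5 and 46.9 CPM, and the other panels show small shifts or overlap.

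The other GBP genes of the table were hardly transcribed. GBP6 had 8, 0 and 9 counts in shCtrl and 0, 12 and 8 counts in shmiR155HG, and GBP7 had 0 counts in each of the 6 libraries. The 5 members thus made up almost all GBP counts, at 871, 871 and 879 CPM together in shCtrl and 836, 809 and 799 CPM in shmiR155HG. The summed level was lower in each shmiR155HG library than in any shCtrl library. All 7 GBP genes summed gave −0.10 on the log2 scale (adjusted p = 0.0231). This value was not corrected for GC content, and 4 of the 5 members were not called on their own. GBP5, GBP4 and GBP1 contributed most of this sum, so that the total moved far less than GBP2.

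Divided by the length of the reference transcript, the order of the levels in shCtrl was GBP1 at 71.2 ± 1.33 CPM per kb, GBP5 at 50.1 ± 1.18, GBP4 at 37.3 ± 0.936, GBP2 at 16.3 ± 1.10 and GBP3 at 10.2 ± 0.360 CPM per kb (SD, n = 3). In shmiR155HG the order was the same, at 66.3 ± 1.07, 47.6 ± 2.37, 36.2 ± 0.876, 11.4 ± 0.0537 and 10.2 ± 0.452 CPM per kb. Neighbours in this order did not overlap in either group. GBP2 came close to GBP3 in shmiR155HG. There GBP2 stood at 11.4 to 11.5 CPM per kb in its 3 libraries, against 9.83 to 10.7 CPM per kb for GBP3. As a share of the members' summed CPM, GBP2 went from 7.63 ± 0.473% in shCtrl to 5.74 ± 0.116% in shmiR155HG, while GBP1 made up 23.5% in both.

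The members share sequence, and reads that fit 2 paralogs could be split between them, so each level is uncertain to that extent. Summing GBP1 and GBP3, the closest pair, gave a log2 fold change of −0.091. The GBP2 gene overlaps GBP7 on the same strand and the antisense gene AC104459.1, and both had 0 counts. GBP4 overlaps the antisense gene AC099063.4, which had 39 to 66 counts in a library beside 7542 to 9072 for GBP4, and GBP5 overlaps the antisense gene AC099063.1, which had 0. The strand setting of the counting is not given in the sources used here, so that antisense reads could not be told apart from those of the GBPs.

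Ratios within a library do not depend on the scaling between libraries. The log2 ratio of GBP2 to GBP1 was −1.66, −1.67 and −1.55 in shCtrl and −2.05, −2.0 and −2.04 in shmiR155HG. The ratio of GBP2 to GBP3 was 1.09, 1.05 and 1.16 in shCtrl and 0.53, 0.63 and 0.64 in shmiR155HG. Against GBP4 and GBP5 the mean log2 ratio of GBP2 changed by −0.47 and −0.43. In all 4 ratios the groups did not overlap.

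Each of these 4 differences had p = 0.1 in a two-sided exact permutation test over the 20 ways to divide the libraries, the smallest p that 3 against 3 libraries allow, and an adjusted p of 0.2 over 10 pairs. This test therefore could not place any pair below 0.05. The ratio of GBP1 to GBP3 also separated the groups, by −0.093 on the log2 scale with the same exact p. The other 5 pairs, formed among GBP1, GBP3, GBP4 and GBP5, overlapped between the groups and changed by −0.060 to 0.066.

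**Figure D2:**
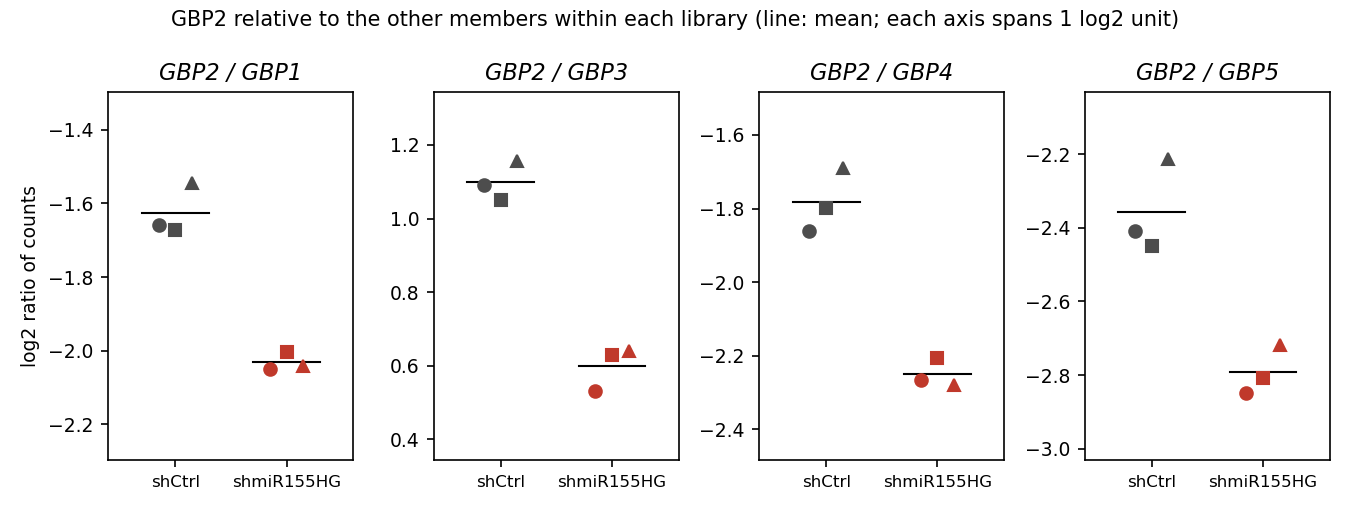
Log2 ratio of GBP2 counts to the counts of GBP1, GBP3, GBP4 and GBP5 within each library (vertical axes, each spanning 1 log2 unit), with symbols for replicates and lines for group means. In every panel the 3 shmiR155HG libraries lie below the 3 shCtrl libraries, for GBP1 from −2.05 to −2.0 against −1.67 to −1.55.

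Along the chromosome, the members nearest to GBP2 are GBP1 and GBP4, neither of which passed the test. Before the cluster, GTF2B, a general transcription factor of RNA polymerase II, KYAT3 and RBMXL1 had log2 fold changes of −0.072, −0.10 and 0.051, none past the threshold (adjusted p = 0.605, 0.521 and 0.802). After the cluster lie 3 genes for subunits of volume-regulated anion channels. LRRC8B fell by 0.46 on the log2 scale (SE 0.11, adjusted p = 0.00295), LRRC8D rose by 0.24 (SE 0.061, adjusted p = 0.00708), and LRRC8C had a log2 fold change of 0.079 (adjusted p = 0.276).

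**Figure D3:**
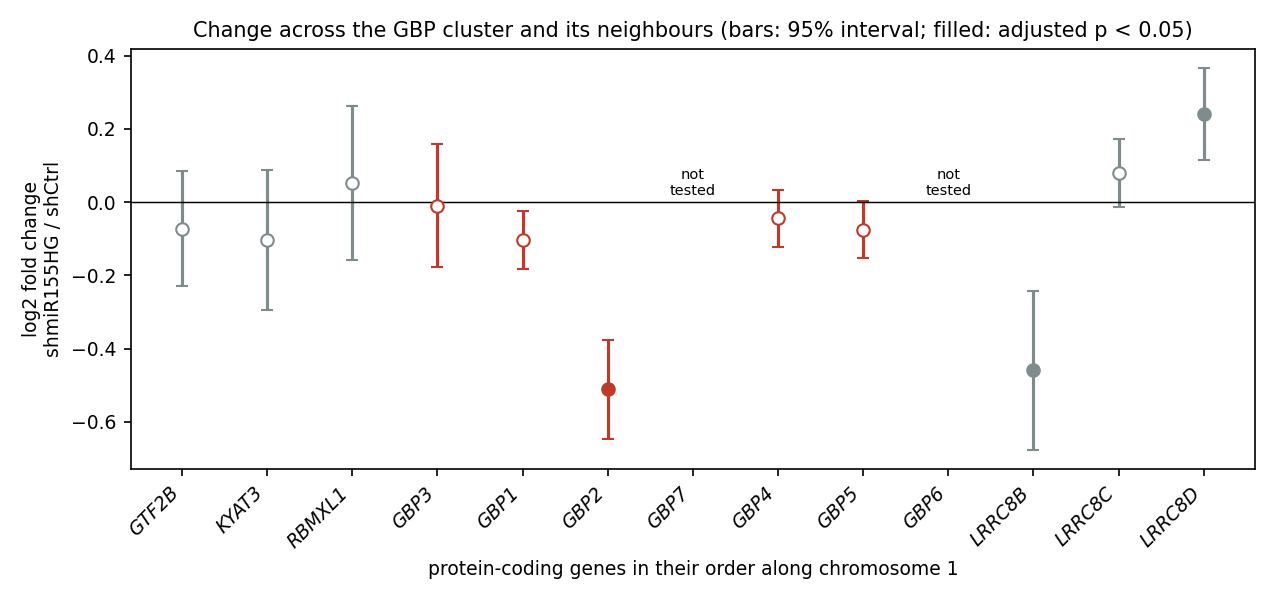
Log2 fold change of shmiR155HG over shCtrl (vertical axis) with its 95% interval for the protein-coding genes in their order along chromosome 1, GBP genes in red and the 3 neighbours on each side in grey, filled where the adjusted p is under 0.05. GBP2 at −0.51 stands apart from the other tested GBP genes, and GBP6 and GBP7 were not tested.

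Among genes of IFN-γ signalling, a list that includes inhibitors of the signal, 4 of 13 tested were called lower and 1 higher. Over all genes 8.02% were called lower and 7.26% higher. The median log2 fold change of the list was 0.034, which does not describe the signal-carrying genes alone. The inhibitors SOCS1, SOCS3, PTPN2, PTPN6 and PIAS1 had values from 0.011 to 0.39, none past the threshold. IFNG, the ligand itself, was measured at 168 ± 7.07 CPM in shCtrl and 127 ± 4.23 CPM in shmiR155HG (SD, n = 3), a fall of the same order as that of GBP2, at −0.41 on the log2 scale (SE 0.045, adjusted p = 1.40e-07). IFNGR1, the ligand-binding receptor chain, changed by −0.35 on the log2 scale (SE 0.080, adjusted p = 0.00307), and the transcription factor IRF8 changed by −0.37 (SE 0.044, adjusted p = 7.11e-07). IRF1 moved the other way, by 0.11 (SE 0.035, adjusted p = 0.0258), a call that was lost in 9 of 18 alternative settings, among them the GC correction (0.078, adjusted p = 0.118) and the omission of any library but shCtrl replicate 3. The kinases JAK1 and JAK2 had values of 0.082 and 0.20 that did not pass (adjusted p = 0.141 and 0.324). IFNGR2, the second receptor chain, was listed at 0 counts in every library. Whether its transcript was absent or was missed in the counting was not tested.

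Genes that respond mainly to IFN-γ, as the GBPs do, split in both directions. Of 24 tested, 5 were called lower and 3 higher, against 8.02% and 7.26% of all genes, and their median log2 fold change was 0.0035. The genes called higher were the MHC class I gene HLA-E at 0.25 (SE 0.034, adjusted p = 4.91e-06), the peptide transporter TAP1 at 0.13 (adjusted p = 0.00985) and the transactivator NLRC5 at 0.19 (adjusted p = 0.0371). The call of NLRC5 was lost in 9 of 18 alternative settings and that of TAP1 in 3, and with the GC correction their adjusted p was 0.147 and 0.151. TAP2 and TAPBP, which act beside TAP1 in peptide loading, had values of −0.058 and −0.081 that did not pass (adjusted p = 0.321 and 0.141). Those called lower were APOL6 at −0.21 (adjusted p = 0.00195), WARS at −0.14 (adjusted p = 0.00637) and LAP3 at −0.15 (adjusted p = 0.0239). CD274 at −0.58 (adjusted p = 0.0248) and CD74 at −0.98 (adjusted p = 0.0409) were also called lower. CD74, with 35 to 125 counts in a library, was called in 13 of 18 alternative settings, CD274 in 12 and LAP3 in 14. APOL6 and WARS were each called in 17 of 18. CIITA, B2M and PSMB9 had values of 0.017, −0.0096 and 0.052 that did not pass (adjusted p = 0.904, 0.874 and 0.607).

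Among genes stimulated mainly by type I interferon, 13 of 35 tested were called lower and 2 higher, beside 8.02% and 7.26% of all genes. The median log2 fold change of the 35 was −0.17. Over 18 alternative settings 9 to 15 genes were called lower. The call of DTX3L was lost in 15 settings and that of OAS1 in 8. XAF1, BST2 and OAS2, an apoptosis regulator, a tether of budding viruses and an RNA sensor, had log2 fold changes of −0.61, −0.30 and −0.39 (adjusted p = 9.14e-05 for XAF1 and 5.94e-06 for BST2). IFIT3 and RSAD2, both antiviral effectors, were the 2 genes called higher, at 0.45 (adjusted p = 4.08e-05) and 0.35 (adjusted p = 0.00169). MX1, an antiviral GTPase of the dynamin family that resembles the GBPs in design, dropped from 485, 370 and 454 counts in shCtrl to 232, 192 and 171 counts in shmiR155HG, −1.08 on the log2 scale (SE 0.16, adjusted p = 2.07e-05). Its relative MX2 had 0 counts throughout, and the GTPase gene IRGQ had a value of −0.19 (adjusted p = 0.388).

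Genes for partners of the GBP proteins had 1 call per list. Of 7 tested genes for inflammasomes and pyroptosis, the inflammatory cell death that GBPs help to start, 1 was called lower and 0 higher, where 8.02% and 7.26% of all genes were, so that a single call is near the background. This was CASP1, the caspase that matures IL-1 family cytokines, with 43.8 ± 1.52 CPM in shCtrl and 33.4 ± 1.07 CPM in shmiR155HG (SD, n = 3), or −0.39 on the log2 scale (SE 0.074, adjusted p = 0.000401). CASP4, which senses lipopolysaccharide on GBP coats, had a value of −0.10 (adjusted p = 0.303), and the pore protein GSDMD one of 0.010 (adjusted p = 0.957). CASP5 and NLRP3 had 0 counts in all libraries. Another list held the 6 enzymes that attach and process the prenyl groups by which GBP1, GBP2 and GBP5 anchor to membranes. Of these, 1 was called lower and 0 higher, again near the background of 8.02% and 7.26% of all genes. The gene called was the methyltransferase ICMT, at −0.19 (adjusted p = 0.000160), and its call was lost under the study's exact test rule. The transferase subunits FNTA, FNTB and PGGT1B had values of −0.010, 0.28 and −0.054 that did not pass.

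**Figure D4:**
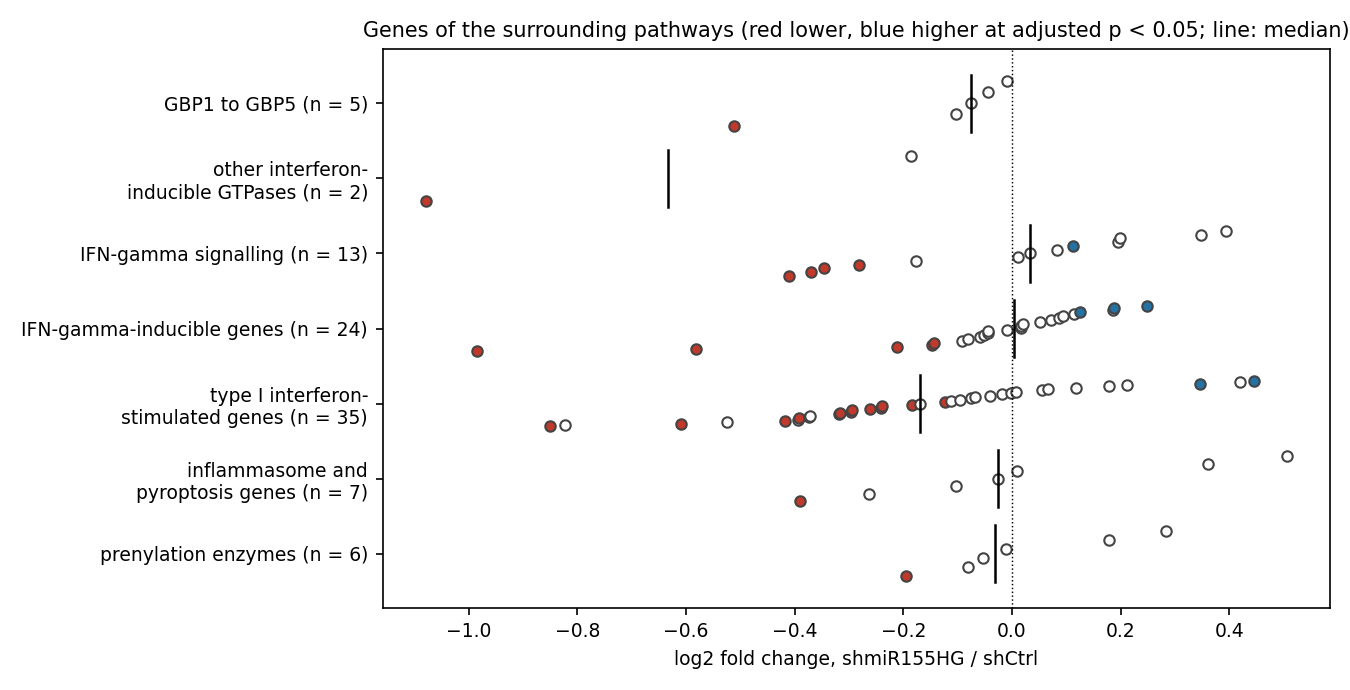
Log2 fold change of shmiR155HG over shCtrl (horizontal axis) for every tested gene of 7 groups, red where called lower and blue where called higher at an adjusted p under 0.05, with a line at each group's median. GBP2 at −0.51 lies apart from the other 4 GBP genes, and the group of type I interferon-stimulated genes has its median at −0.17.

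The fitted changes moved with GC content across all genes, and the GBPs are poor in GC. Over 5 equal groups of genes ordered by GC content, the median log2 fold change went from −0.054 in the lowest to 0.069 in the highest. The reference transcripts of the members held 39.8% to 43.1% GC, which places GBP5 in the lowest group and the other 4 in the second, where the median was −0.035. GBP2 remained called with the GC correction, at a log2 fold change of −0.45 (adjusted p = 2.08e-05), whereas the shifts of GBP1 and GBP5 came to −0.051 and −0.0018 and those of GBP3 and GBP4 turned positive.

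**Figure D5:**
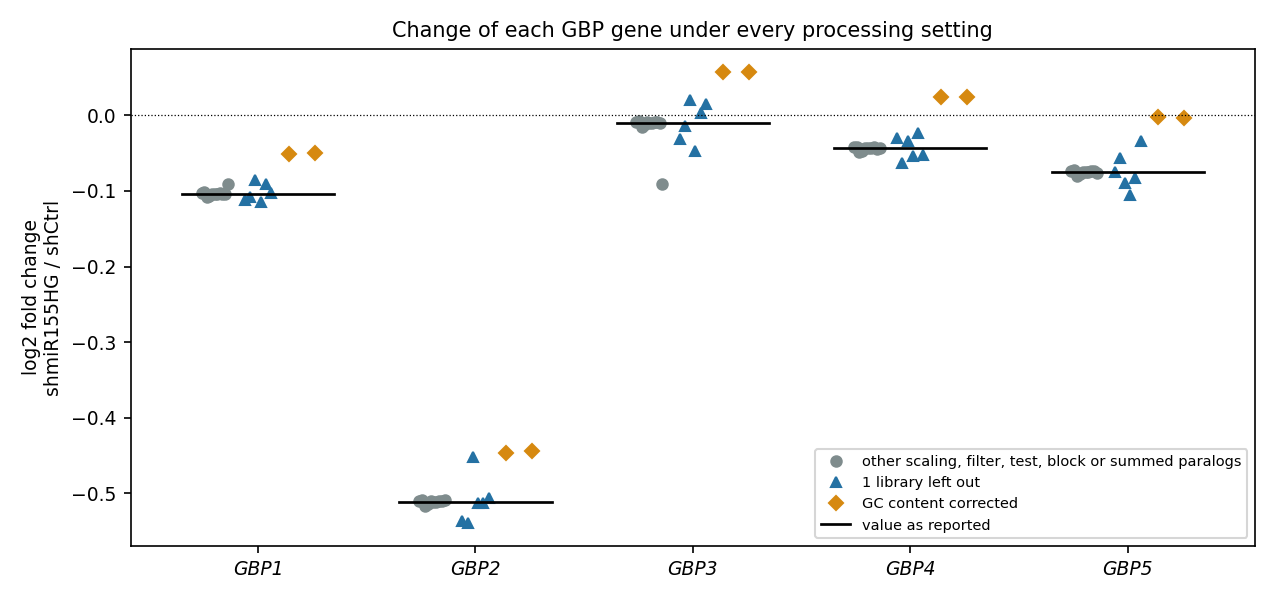
Log2 fold change of each GBP gene (vertical axis) under each processing setting, with the reported value as a line, grey circles for other scalings, filters and tests, the replicate block and summed paralogs, blue triangles for 1 library left out and orange diamonds for corrected GC content. GBP2 stays between −0.54 and −0.44, while the diamonds of the other members lie nearer to or above 0.

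As a description, EIF3C, NFKBIA, PTPN11 and PSTPIP2 were among the 5 genes whose log2 CPM followed the mean of the members most closely over the 6 libraries, each with a Pearson r of 0.997 to 0.998. EIF3C encodes a translation initiation factor subunit and NFKBIA the inhibitor of NF-κB. Of 12258 other genes, 193 had an r over 0.95, and the libraries fall into the same groups for all of them. Taken as deviations from the group means, r of the 4 named genes was 0.970 to 0.983. These genes were picked for their high r over the same libraries, so this value is no separate evidence. Between the members themselves, r of the deviations ran from −0.40 (GBP4 and GBP5) to 0.84 (GBP1 and GBP3).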

How the data were processed

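RNA was sequenced from NK92 cells with shCtrl or shmiR155HG (3 libraries each), all treated with IL-2 and IL-12. The authors deposited whole-number read counts per gene, without normalization. According to the study's methods and the submitters' processing notes, reads were aligned to hg38 with HISAT2, and counts were made with StringTie on reference transcripts and merged with prepDE.py3. This program derives counts from transcript coverage, so reads shared by paralogs such as the GBPs may be divided. The annotation release, strand setting and tool versions are not given in the sources used here. Groups were taken from the sample titles, because the treatment field of 2 shmiR155HG libraries (replicates 2 and 3) spells the hairpin with a different number.

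The analysis used edgeR 4.0.16 under R 4.3.3. Genes with over 1 CPM in at least 2 libraries were kept, libraries were scaled with TMM, and edgeR's quasi-likelihood test (robust fit) was run on 12263 genes with Benjamini-Hochberg adjustment and a threshold of 0.05. Where no test is named, an adjusted p-value is from this one. Members were compared with each other by exact permutation tests of log2 ratios within libraries. Replicates of a group differed by more than counting noise (mean chi-square per gene 7.35 to 10.9), and 33454786 to 39157264 counts per library left the spread between libraries as the main error. Alternatives were other scalings, filters and tests (DESeq2 1.42.0, limma 3.58.1, edgeR's exact test), halved counts, the replicate block, a GC correction and each library left out. The steps were tested on simulated data.

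Named genes were the 5 members, genes of the context lists that passed the test or define a step, 3 protein-coding neighbours on each side, the 5 genes most like the members' mean, and MIR155HG. Of these, 2 genes are not reported here. CIITA, B2M, PSMB9, IRGQ, CASP4, GSDMD, the inhibitors of IFN-γ signalling, the cell type markers and the prenyl transferase genes were named as members of their lists. Members and lists were chosen with earlier results of these data known. Positions, lengths and GC content came from GENCODE v44 for hg38 (36366 of 36601 identifiers matched), and promoters and the miRNA from RefSeq GRCh38.p14, with a promoter for 3 of the 5 members. No column of the table was left out.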

Additional observations from a re-analysis of the deposited data

How the results depend on the processing

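GBP2 kept its direction and its call in 18 of 18 alternative settings (−0.54 to −0.44 on the log2 scale, highest adjusted p 0.000151, without shmiR155HG replicate 2), and no other member was called in any of them; the lowest adjusted p of GBP1 was 0.0521, with DESeq2's Wald test. With the GC correction GBP3 turned to 0.058 and GBP4 to 0.024, and with the GC correction and the replicate block together to 0.058 and 0.025; the cause was not tested. With 1 library left out, the values ran from −0.11 to −0.086 for GBP1, −0.54 to −0.45 for GBP2, −0.047 to 0.020 for GBP3, −0.063 to −0.023 for GBP4 and −0.11 to −0.034 for GBP5. The differences between members ran from −0.068 to 0.0044 for GBP1 minus GBP5, −0.0024 to 0.067 for GBP3 minus GBP4 and −0.018 to 0.063 for GBP4 minus GBP5, and the other 7 pairs kept their sign. With the replicate block GBP2 had a log2 fold change of −0.51 (adjusted p = 1.43e-05) and GBP1 one of −0.10 (adjusted p = 0.0966); same-numbered libraries did not deviate together (r of −0.018, 0.00098 and 0.0035), so the numbers were not taken as pairs. The rule of the exact test with a fold over 1.2 called 466 genes lower and 551 higher, against 984 and 890, and leaving out shmiR155HG replicate 2 gave 674 and 580. Between 2 and 5 of the IFN-γ-inducible genes were called lower and between 0 and 4 higher over the settings. Depth limits GBP6, whose 0 to 12 counts allow no comparison, and MIR155HG, with 10 to 73 counts.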
